A study of Mus musculus with 24 samples.

Results

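Fbn1, Nphs1, Atp2b2 and Gabrp are 4 genes picked as strongly raised in mouse embryonic stem cells that lack the RNA demethylase ALKBH5. They are 4 of the 56941 genes in the deposited table and were found there by the Ensembl identifiers that match their symbols, with all 9 value columns used. All 4 passed the filter on low levels that left 22448 genes for testing. They were chosen by their levels in the knockout, so each value that sets the knockout against another genotype is given here as a description, without a test. The label does not say which knockout values were used for the choice.

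New transcripts were labelled for 10, 20, 40 or 60 min with 1 mM EU (5-ethynyl uridine), which enters RNA in place of uridine as it is made, then pulled out by click chemistry and sequenced. The cells were of the E14TG2a line in 3 genotypes: with a knockout of Alkbh5 (KO, Alkbh5-/-), with Alkbh5 lacking its C-terminal intrinsically disordered region (Alkbh5 del-cIDR, here dcIDR), or unmodified (WT). Every group grew in serum medium with LIF, PD0325901 (a MEK inhibitor) and CHIR99021 (a GSK3 inhibitor), and EU-labelled Drosophila RNA was added in equal amount as a spike-in. Each genotype and labelling time had 2 libraries, 8 per genotype and 24 in all. Nothing in the labels names more than 1 line per genotype or says that replicates came from separate days, so p-values measure the spread between these libraries.

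ALKBH5 takes the N6-methyl group (m6A) off adenosines in RNA. Fbn1 encodes fibrillin-1, the main building block of extracellular microfibrils, and Nphs1 encodes nephrin, an adhesion protein of the slit diaphragm between kidney podocytes. Atp2b2 encodes PMCA2, a plasma membrane pump that moves calcium out of cells and is known from hair cells and neurons, and Gabrp encodes the pi subunit of the GABA-A receptor, a chloride channel opened by GABA. None of these is a gene that embryonic stem cells are known for.

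Reads over genes numbered 3129083 to 22159864 per library, with 6037 to 23382 spike-in reads. A level is the number of reads of a gene per fixed number of spike-in reads, and is given below as a multiple of the median tested gene of the same library. Alkbh5 itself had reads in every library. It stood at 6.36 to 10.5 times the median gene in KO, 5.86 to 13.0 in dcIDR and 9.53 to 18.3 in WT libraries. It was lower than WT by a log2 difference of -0.60 ± 0.05 (SE) in KO and -0.46 ± 0.05 in dcIDR (adjusted p = 4.27e-09 and 6.86e-07, limma), and since values are per gene, the deleted stretches are not seen. All 10 embryonic stem cell markers, such as Pou5f1, Nanog and Sox2, passed the filter. Their summed reads made up 0.391 to 0.453% of reads in KO, 0.4 to 0.455% in dcIDR and 0.422 to 0.45% in WT. In KO 2 of the 10 were higher and 4 lower than WT (15.4% and 16.7% over all genes, limma, adjusted p under 0.05). The falls included Tfcp2l1 at -0.61, Sox2 at -0.41 and Klf4 at -0.39, and the rises were Zfp42 at 0.25 and Tdgf1 at 0.14. In dcIDR 1 was higher and 4 lower (11.4% and 16.4% over all genes). In such bulk libraries, more cells with a transcript and more of it per cell cannot be told apart.

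The 250 bases before each gene's start are shown because the 4 genes were high in the same cells, so that their letters can be compared. They are from RefSeq on GRCm38.p6, whereas the deposited table was made on GRCm39 and gives no coordinates. The windows are chr2:125506439-125506688 on the minus strand for Fbn1, chr7:30459808-30460057 on the plus strand for Nphs1, chr6:114042081-114042330 on the minus strand for the first of 3 annotated starts of Atp2b2, and chr11:33578958-33579207 on the minus strand for Gabrp. Capitals mark the GC box GGGCGG, and the sequences run 5′ to 3′.
Fbn1: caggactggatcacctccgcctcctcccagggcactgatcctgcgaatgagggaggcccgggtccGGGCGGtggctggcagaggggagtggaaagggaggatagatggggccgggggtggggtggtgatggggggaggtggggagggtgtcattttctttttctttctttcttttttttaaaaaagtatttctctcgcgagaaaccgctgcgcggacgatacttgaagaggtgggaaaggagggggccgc
Nphs1: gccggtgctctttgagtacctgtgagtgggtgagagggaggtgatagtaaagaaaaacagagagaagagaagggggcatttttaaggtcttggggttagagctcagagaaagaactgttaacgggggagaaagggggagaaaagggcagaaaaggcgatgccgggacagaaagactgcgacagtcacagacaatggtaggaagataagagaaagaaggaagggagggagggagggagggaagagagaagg
Atp2b2: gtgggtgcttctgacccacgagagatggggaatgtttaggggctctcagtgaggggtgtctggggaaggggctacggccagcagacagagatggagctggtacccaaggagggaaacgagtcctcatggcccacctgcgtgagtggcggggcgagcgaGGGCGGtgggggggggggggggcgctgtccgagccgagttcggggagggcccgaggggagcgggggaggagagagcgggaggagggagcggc
Gabrp: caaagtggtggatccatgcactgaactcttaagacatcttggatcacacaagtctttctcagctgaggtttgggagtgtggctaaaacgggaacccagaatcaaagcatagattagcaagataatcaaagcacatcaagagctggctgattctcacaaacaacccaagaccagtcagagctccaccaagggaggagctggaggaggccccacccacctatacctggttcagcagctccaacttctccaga
The Fbn1 and Atp2b2 windows each held 1 GC box, a motif present on either strand in 32.7% of 32851 such windows. Those of Nphs1 and Gabrp held none. The CCAAT box (letters CCAAT), the TATA box (letters TATAAA), an E-box (letters CACGTG) and an AP-1 site (letters TGANTCA), present on either strand in 33.8%, 12.4%, 6.02% and 6.75% of windows, were found in none of the 4. CpG pairs numbered 13 for Fbn1, 5 for Nphs1, 16 for Atp2b2 and 1 for Gabrp, against a median of 6 over all windows. The 4 windows shown thus span CpG-rich and CpG-poor starts. Starts 2 and 3 of Atp2b2 had 6 CpG pairs each, with no GC box at start 2 and 1 at start 3. Which start these cells use was not tested.

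Fbn1 was high in KO, and its dcIDR and WT levels lay together. In KO libraries it stood at 1.85 and 2.17 times the median gene (10 min), 2.18 and 2.20 (20 min), 2.68 and 2.39 (40 min), and 2.76 and 2.43 (60 min). In dcIDR libraries it stood at 0.599 and 0.758 times (10 min), 0.672 and 0.643 (20 min), 0.769 and 0.766 (40 min), and 0.909 and 0.908 (60 min). In WT libraries the values were 0.594 and 0.895 (10 min), 0.668 and 0.620 (20 min), 0.866 and 0.709 (40 min), and 0.872 and 0.818 (60 min). Every KO library was thus above every library of the other genotypes, and dcIDR and WT overlapped. Over all tested genes, all 8 KO libraries lay above all 8 WT libraries in 3.14%. All 8 dcIDR libraries lay below all 8 KO libraries in 5.46%. KO minus WT was 1.63 ± 0.10 on the log2 scale (SE), or 3.10-fold, with 16 tested genes showing a larger difference. These values rest on 107 to 525 Fbn1 reads per KO library, 24 to 158 per dcIDR library and 33 to 143 per WT library, fewest at 10 min in dcIDR.

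Nphs1 was high in KO and low in dcIDR. Its KO levels were 6.52 and 6.64 times the median gene (10 min), 8.23 and 8.96 (20 min), 7.26 and 7.71 (40 min), and 6.48 and 7.05 (60 min). Its dcIDR levels were 1.76 and 2.21 times (10 min), 1.35 and 1.45 (20 min), 1.50 and 1.46 (40 min), and 1.40 and 1.37 (60 min). Its WT levels were 2.62 and 3.40 times (10 min), 3.12 and 3.53 (20 min), 2.33 and 2.72 (40 min), and 2.63 and 2.47 (60 min). The 3 genotypes did not overlap, KO being highest and dcIDR lowest. Over all tested genes, 3.14% had all KO above all WT libraries, and 1.65% all dcIDR below all WT libraries. KO minus WT was 1.37 ± 0.07, or 2.59-fold, and 51 tested genes had a larger difference.

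Atp2b2 was highest in KO and intermediate in dcIDR. KO libraries held 1.57 and 1.97 times the median gene (10 min), 2.19 and 2.20 (20 min), 2.50 and 2.11 (40 min), and 2.08 and 2.31 (60 min). In dcIDR libraries the values were 0.976 and 1.24 (10 min), 1.12 and 1.05 (20 min), 1.26 and 1.31 (40 min), and 1.05 and 1.07 (60 min). WT libraries held 0.762 and 0.789 times (10 min), 0.882 and 0.595 (20 min), 0.651 and 0.686 (40 min), and 0.677 and 0.642 (60 min). Here too the genotypes did not overlap, with dcIDR between KO and WT. All dcIDR libraries lay above all WT libraries in 1.14% of tested genes, and below all KO libraries in 5.46%. KO minus WT was 1.57 ± 0.09, or 2.98-fold, with 22 genes showing a larger difference.

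Gabrp was higher in KO and dcIDR than in WT at each labelling time, and its level relative to the median gene fell with time in dcIDR and WT. KO levels were 7.65 and 7.01 times the median gene (10 min), 7.98 and 7.41 (20 min), 7.07 and 6.79 (40 min), and 6.68 and 6.07 (60 min). In dcIDR cells they were 8.39 and 9.27 (10 min), 7.37 and 7.08 (20 min), 5.32 and 5.66 (40 min), and 4.03 and 3.98 (60 min). In WT cells they were 6.26 and 5.87 (10 min), 5.35 and 5.79 (20 min), 3.64 and 3.30 (40 min), and 2.95 and 3.28 (60 min). Both KO libraries and both dcIDR libraries were above both WT libraries at each time, but over all times the genotypes overlapped, since early WT libraries reached late KO and dcIDR values. The split of the WT reads at 60 min between both libraries was chosen among several possible ones, while the sum is exact. KO minus WT was 0.69 ± 0.05, or 1.62-fold, and 805 tested genes had a larger difference, so Gabrp was the least raised of the 4.

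**Figure D1:**
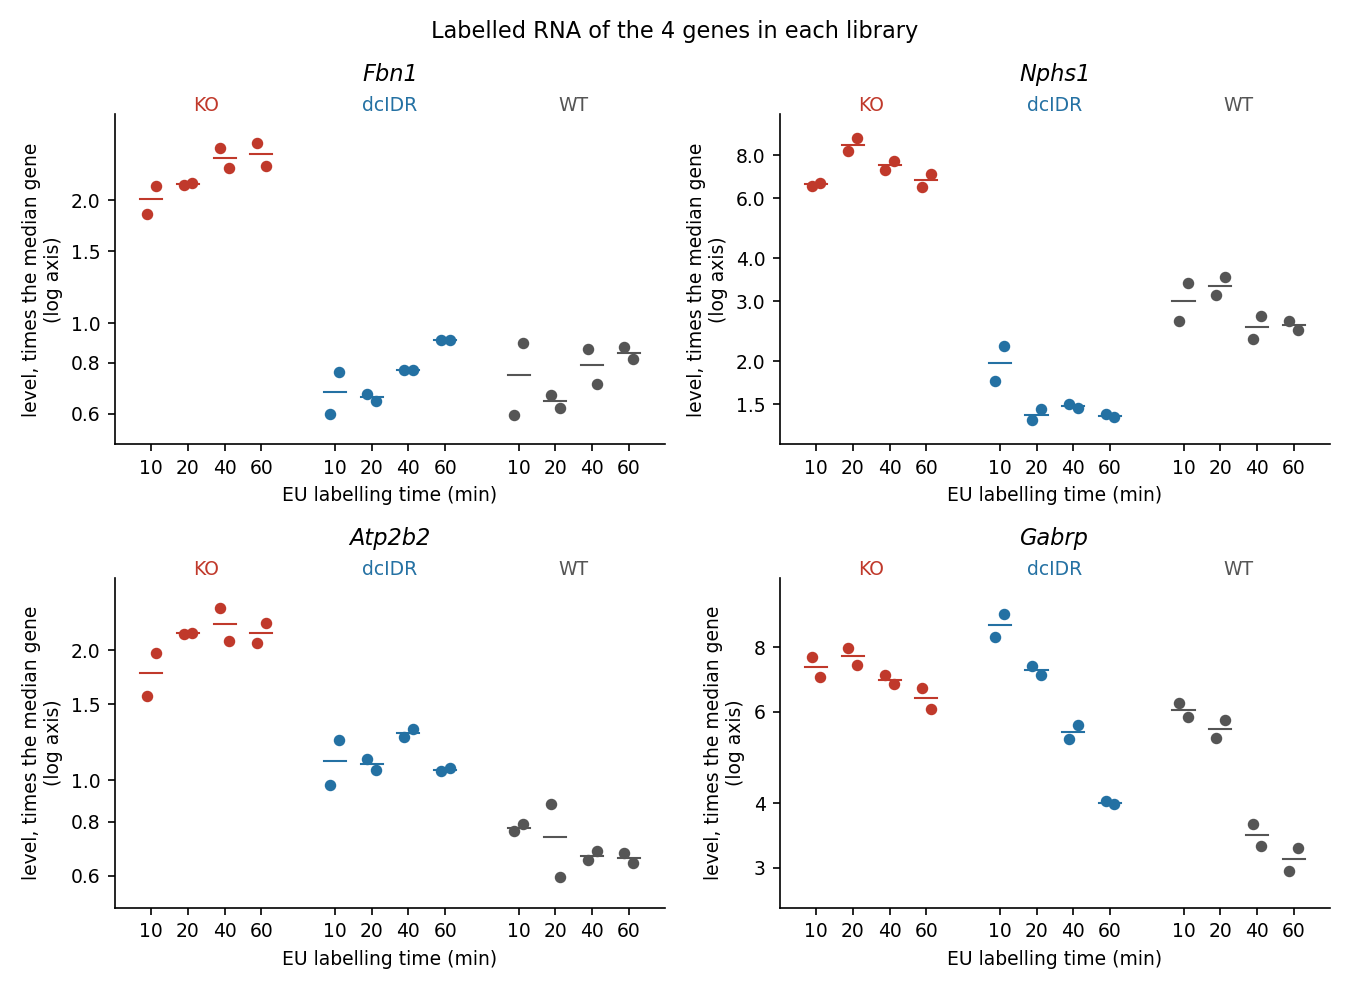
Level of each gene in each library, as a multiple of the median tested gene (log axis), by genotype and labelling time in minutes. Points are libraries and short lines the mean of 2. KO points lie above WT points at each time in all 4 panels, dcIDR points lie with WT for Fbn1, below WT for Nphs1 and above WT for Atp2b2 and Gabrp.

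In the comparison of KO with WT over all tested genes, 15.4% passed upward and 16.7% downward (limma, adjusted p under 0.05). All 8 KO libraries lay above all 8 WT libraries in 3.14% of genes, Fbn1, Nphs1 and Atp2b2 among them, and both above both at each time in 8.18%, all 4 members among them, but the direction was fixed by the choice. The KO difference was also taken at each labelling time. For Fbn1 it was 1.46, 1.76, 1.69 and 1.61 at 10, 20, 40 and 60 min, each ± 0.19 (SE), with no steady trend over the times. For Nphs1 it was 1.14, 1.37, 1.57 and 1.41, each ± 0.13, and for Atp2b2 1.18, 1.60, 1.78 and 1.74, each ± 0.18. For Gabrp it was 0.27, 0.47, 1.00 and 1.03, each ± 0.10, so the late differences were well above the early ones.

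The 4 genes are named for their levels in KO, so dcIDR was tested against WT, with the limits that this comparison shares the WT libraries and that the genes were picked with earlier results of these data known. Of all tested genes, 11.4% were higher and 16.4% lower in dcIDR than in WT. Atp2b2 and Gabrp rose, Nphs1 fell, and Fbn1 did not pass the test. Atp2b2 was higher by 0.68 ± 0.09, or 1.60-fold (adjusted p = 3.76e-06, limma), and Gabrp by 0.49 ± 0.05, or 1.40-fold (adjusted p = 3.11e-08). Nphs1 differed by -0.87 ± 0.07, which is 0.546 of the WT level (adjusted p = 2.44e-10). Fbn1 had a difference of -0.0019 ± 0.10 (adjusted p = 0.992). All 8 dcIDR libraries lay above all 8 WT libraries for Atp2b2, which was true of 1.14% of genes, and below them for Nphs1, true of 1.65%. For Gabrp both were above both WT libraries at each time, as in 3.71% of genes.

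By labelling time, the Nphs1 difference between dcIDR and WT was -0.60, -1.25, -0.76 and -0.88 at 10, 20, 40 and 60 min, each ± 0.13, and passed the test at each time. The Atp2b2 difference was 0.51, 0.59, 0.94 and 0.68, each ± 0.18, and passed at 20, 40 and 60 min (adjusted p = 0.0538 at 10 min). The Gabrp difference was 0.54, 0.38, 0.66 and 0.36, each ± 0.10, and passed at each time. For Fbn1 the values were -0.11, 0.03, -0.03 and 0.11, each ± 0.19, with no time passing. Set against KO, dcIDR was lower in each of the 4 genes, by values of -1.63 for Fbn1, -2.25 for Nphs1, -0.89 for Atp2b2 and -0.21 for Gabrp. The last of these changed with time, since dcIDR exceeded KO at 10 min (8.83 ± 0.62 against 7.33 ± 0.46 times the median gene, SD, n = 2 each) and was below it at 60 min (4.01 ± 0.04 against 6.38 ± 0.43). All 8 dcIDR libraries were below all 8 KO libraries for Fbn1, Nphs1 and Atp2b2, as in 5.46% of genes. These differences use the KO libraries and are descriptions.

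**Figure D2:**
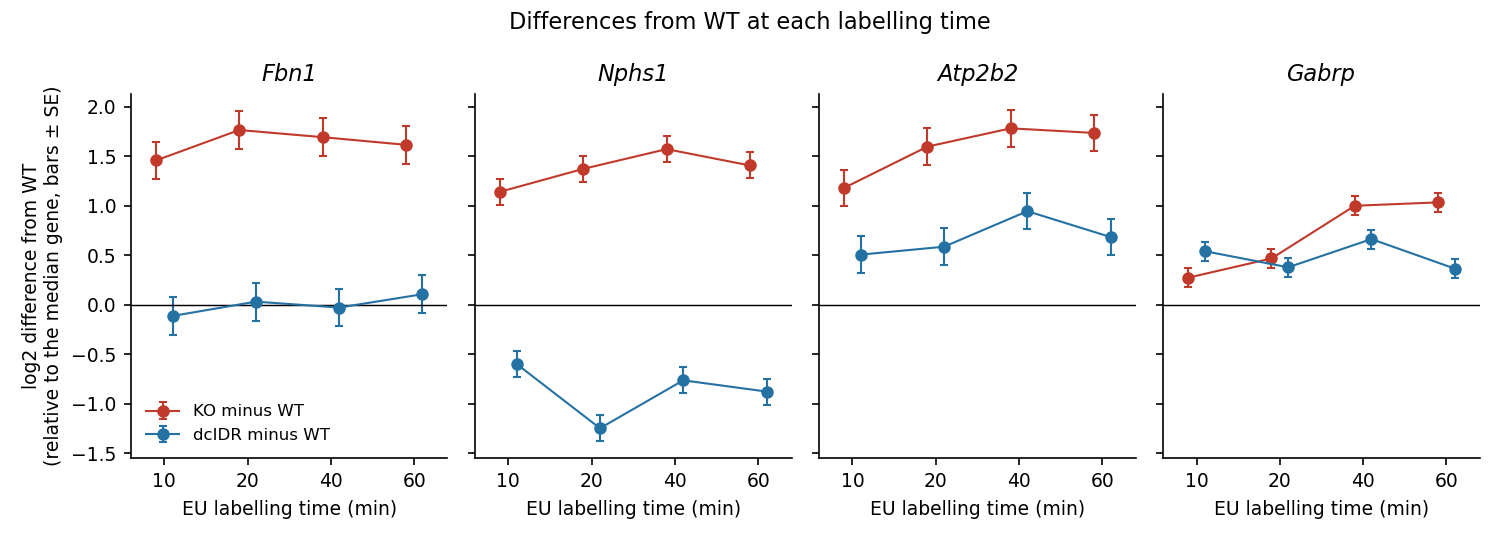
Log2 difference from WT at each labelling time in minutes for the 4 genes, relative to the median gene, KO in red and dcIDR in blue. Bars are ± SE from the fit over all genes. The KO differences lie between 1.14 and 1.78 for Fbn1, Nphs1 and Atp2b2 and climb to 1.03 for Gabrp, and the dcIDR differences lie near 0 for Fbn1, below 0 for Nphs1 and above 0 for Atp2b2 and Gabrp.

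All of these differences are relative to the median gene. Scaled to the spike-in alone, the median gene was itself 0.30 higher in KO than in WT and 0.15 higher in dcIDR. On that scale KO minus WT was 1.94 ± 0.18 for Fbn1, 1.68 ± 0.15 for Nphs1, 1.88 ± 0.17 for Atp2b2 and 1.00 ± 0.15 for Gabrp. The dcIDR differences were 0.17 for Fbn1 (adjusted p = 0.593), -0.70 for Nphs1 (adjusted p = 0.000209), 0.85 for Atp2b2 (adjusted p = 5.25e-05) and 0.66 for Gabrp (adjusted p = 0.000338). The direction of no called difference changed with the scale.

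The labelling series shows how fast labelled transcripts of a gene gather compared with the median gene, as a slope per doubling of minutes. Over all genes, the slope passed the test upward in 30.5% and downward in 14.1% in dcIDR, and in 26.1% and 9.68% in WT. Gabrp fell against the median gene by -0.43 ± 0.03 per doubling in dcIDR and by -0.41 ± 0.03 in WT (adjusted p = 3.03e-10 and 2.19e-09). Its slope in KO was -0.08 ± 0.03, and the KO slope exceeded the WT slope by 0.33 ± 0.05, a description because it uses the KO libraries. Over all genes 0.0356% passed the test of that slope difference. Between dcIDR and WT the Gabrp slopes differed by -0.02 ± 0.05 (adjusted p = 0.900). Among all tested genes 1.46% had a higher and 0.41% a lower slope in dcIDR than in WT, and none of the 4 genes passed that test.

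Nphs1 had slopes of 0.0011 ± 0.05 in KO, -0.17 ± 0.05 in dcIDR (adjusted p = 0.00506) and -0.12 ± 0.05 in WT (adjusted p = 0.0427). Both calls rest on single libraries or times and on the processing. Without the filter on low levels the dcIDR slope was -0.0093 (adjusted p = 0.899), and the WT call was lost without the variance trend (adjusted p = 0.0623) and with a pseudocount of 5 (adjusted p = 0.0814). In dcIDR the slope was -0.11 without library B of 10 min (adjusted p = 0.104) and 0.0035 without all 10 min libraries, and in WT it was -0.06 without library B of 10 min (adjusted p = 0.479). The WT call was also lost without either KO library of 40 min, library B of WT at 20 min, library A of WT at 40 min or either WT library of 60 min, with adjusted p up to 0.158. Fbn1 slopes were 0.15 ± 0.07 in KO, 0.17 ± 0.07 in dcIDR (adjusted p = 0.0525) and 0.10 ± 0.07 in WT (adjusted p = 0.275). Atp2b2 slopes were 0.13 ± 0.07 in KO, 0.02 ± 0.07 in dcIDR (adjusted p = 0.837) and -0.10 ± 0.07 in WT (adjusted p = 0.281). Neither gene passed the test in dcIDR or WT as fitted, but calls were gained under several alternatives. Without the filter on low levels Fbn1 passed in dcIDR (0.32, adjusted p = 0.000248) and WT (0.27, adjusted p = 0.00206) and Atp2b2 in dcIDR (0.18, adjusted p = 0.0343). Fbn1 passed in dcIDR with quantile normalization (0.19, adjusted p = 0.0369) and without the variance trend (adjusted p = 0.041). Without the 10 min libraries Fbn1 passed in both, at 0.29 in dcIDR (adjusted p = 0.0223) and 0.25 in WT (adjusted p = 0.0374). The dcIDR slope of Fbn1 also passed without library B of dcIDR at 10 min (0.23, adjusted p = 0.0233) or without either WT library of 10 min, and its WT slope without library B of WT at 10 min (0.21, adjusted p = 0.0427).

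In the authors' deposited table, which holds log2 ratios to 10 min on the spike-in scale, all 36 values of the 4 genes were above 0. At 60 min Gabrp is given there as 1.38 in KO, 1.41 in dcIDR and 1.02 in WT, against medians over the tested genes of 1.67 in KO, 2.72 in dcIDR and 2.09 in WT. Fbn1 is given in the authors' deposited table as 1.94 in KO, 3.02 in dcIDR and 2.21 in WT at 60 min, Nphs1 as 1.61 in KO, 2.05 in dcIDR and 1.75 in WT, and Atp2b2 as 1.87 in KO, 2.51 in dcIDR and 1.76 in WT. A gene that gathers more slowly than the median gene thus has a positive ratio and a negative slope. Labelled Gabrp transcripts had slopes above 0 on the spike-in scale, of 0.54 in KO, 0.56 in dcIDR and 0.39 in WT. The median gene had 0.65 in KO, 1.03 in dcIDR and 0.84 in WT. From 40 to 60 min the deposited Gabrp ratio rose from 1.05 to 1.38 in KO. It fell from 2.08 to 1.41 in dcIDR and from 1.08 to 1.02 in WT. The median ratio over the tested genes in dcIDR went from 2.89 to 2.72 between these times. On that scale the KO slope of Gabrp minus its WT slope was 0.14 ± 0.15 (SE), while the median gene had a difference of -0.21.

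**Figure D3:**
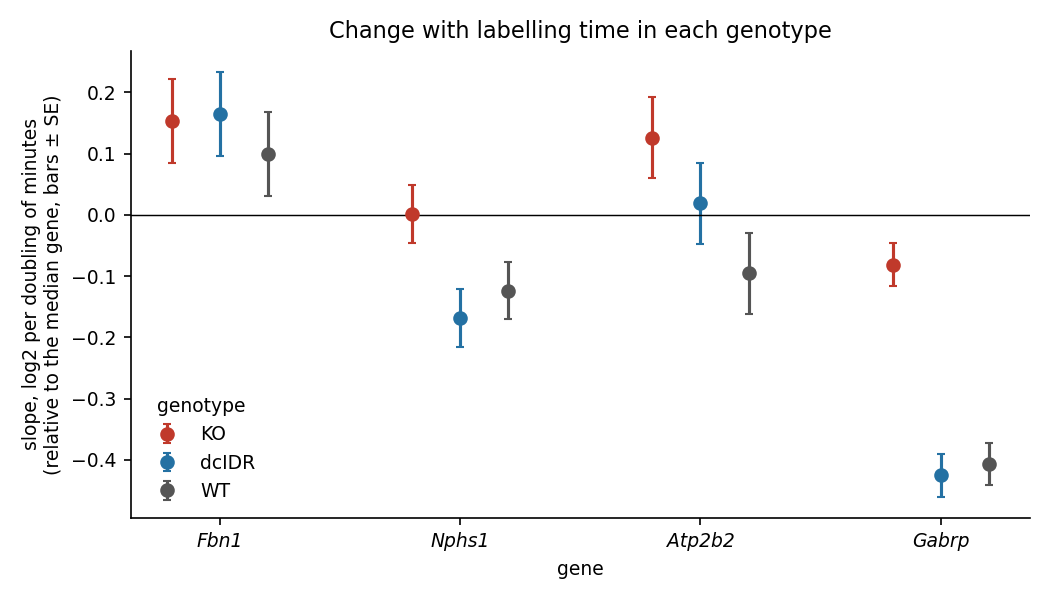
Slope of each gene with labelling time, in log2 units per doubling of minutes relative to the median gene, for KO, dcIDR and WT. Bars are ± SE. Gabrp lies near -0.4 in dcIDR and WT and at -0.08 in KO, while the other genes lie between -0.17 and 0.17.

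The genes beside the 4 members show how far a difference extended along the chromosome. The 3 nearest tested genes on each side were taken, 24 in all, placed by the GRCm38 annotation. In KO 11 of the 24 were higher than WT and 0 lower, where 15.4% of all genes were higher and 16.7% lower. Gm9913, Nphs1os and Gm44167, among these 11, overlap a member and may share its reads. Gm44167, Sec13 and Gm44053, also among them, lie on chromosome 6, where 585 of 781 genes of mean level at least 50 were higher. The number of neighbours called in KO, higher or lower, was 10 to 13 when single libraries were left out. In dcIDR 1 was higher and 6 were lower, against 11.4% and 16.4% of all genes.

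Beside Fbn1 on chromosome 2, at lower coordinates, lie Slc24a5 (a pigment cell exchanger), Myef2 and Dut (dUTPase). Their KO differences were -0.01, -0.07 and -0.14, and Cep152 (a centrosome protein) on the other side had 0.02. Shc4, next to Cep152, had 0.85 ± 0.40 (adjusted p = 0.113), and none of these passed the test. Gm9913, which overlaps Fbn1 on the opposite strand, was higher in KO by 1.20 ± 0.34 (adjusted p = 0.00709). Its level was near the filter, and whether its reads were told from those of Fbn1 is not given in the sources used here. Over the 20 nearest tested genes, 10 on each side, the median KO difference was 0.00041, and Fbn1 exceeded it by 1.63.

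Nphs1 on chromosome 7 lies next to Kirrel2, whose product, a nephrin relative, is also a slit diaphragm protein. Kirrel2 was higher in KO by 1.34 ± 0.15 (adjusted p = 1.22e-07) and lower in dcIDR by -0.47 ± 0.15 (adjusted p = 0.0213). The antisense gene Nphs1os, which overlaps Nphs1, was higher in KO by 1.07 ± 0.23 (adjusted p = 0.000647) and had -0.56 ± 0.23 in dcIDR (adjusted p = 0.0707). Its reads may be shared with Nphs1. Aplp1, of the amyloid precursor family, was higher in KO by 0.45 ± 0.13 (adjusted p = 0.00707). Further out, Nfkbid had 0.0022, Prodh2 0.03 and Arhgap33os 0.82 ± 0.33 (adjusted p = 0.0588), and the 20 nearest genes had a median of 0.06, which Nphs1 exceeded by 1.31.

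Atp2b2 lies on chromosome 6, where of 781 genes whose mean level reached 50, 585 were higher in KO and 33 lower, with a median of 0.41. Its 20 nearest genes had a median of 0.45, with 14 higher and 1 lower, and Atp2b2 exceeded that median by 1.12. Sec13, a component of COPII coats and the nuclear pore, was higher by 0.55 ± 0.06 (adjusted p = 1.07e-07), and the noncoding gene Gm44053 by 0.41 ± 0.12 (adjusted p = 0.0081). Gm44167, annotated within an intron of Atp2b2 on the same strand, was higher in KO by 1.31 ± 0.28 (adjusted p = 0.000722) and in dcIDR by 1.03 ± 0.28 (adjusted p = 0.00744), and its reads cannot be told from Atp2b2 pre-mRNA. In dcIDR the genes of chromosome 6 had a median of -0.11, opposite in sign to the Atp2b2 difference.

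Gabrp lies on chromosome 11, whose 1122 genes of that level had a KO median of -0.0029. Its 20 nearest genes, however, had a median of 0.48, with 15 higher and 0 lower. Gabrp exceeded this median by 0.21, the smallest such excess of the 4. Dock2, an activator of Rac in blood cells, was higher in KO by 1.16 ± 0.16 (adjusted p = 1.77e-06), and Fam196b by 1.07 ± 0.32 (adjusted p = 0.0103). Gm12117 and the pseudogene Anp32-ps were higher by 0.48 ± 0.16 and 0.45 ± 0.07 (adjusted p = 0.0207 and 3.43e-05). The part of the regional difference in the Gabrp value was not tested. In dcIDR the same 20 genes had a median of -0.13, so there Gabrp was higher than WT while its surroundings were not.

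**Figure D4:**
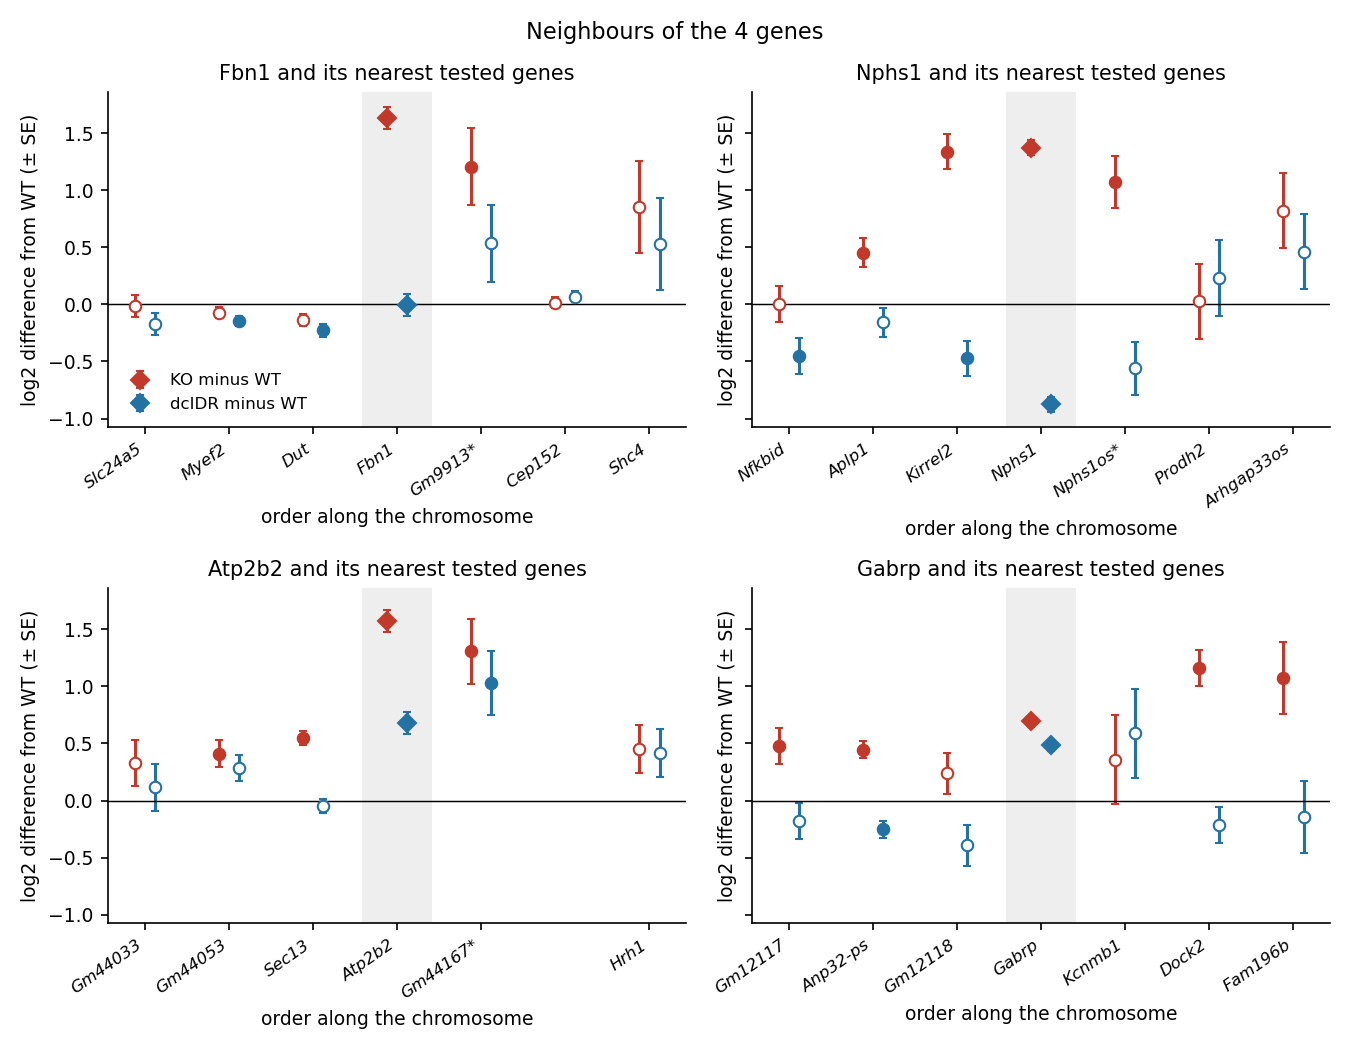
Log2 differences from WT (± SE) of the 3 nearest tested genes on each side of each member, in map order and with 1 gene beside Atp2b2 not drawn, with the member as a diamond on a grey band. Red is KO minus WT and blue dcIDR minus WT. Filled circles passed the test at an adjusted p under 0.05, diamonds carry no test, and a star marks a gene that overlaps the member. Neighbours of Fbn1 lie near 0 apart from Gm9913 and Shc4, while most neighbours of Atp2b2 and Gabrp lie above 0 in KO.

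Genes that work with the 4 members were examined through 4 lists, with the member itself left out of each count. In the microfibril and elastic fibre list 6 of 27 tested genes were higher and 4 lower in KO (15.4% and 16.7% over all genes), with a median of -0.03, against -0.01 for all tested genes. Fbn2, the other fibrillin gene, was higher by 1.81 ± 0.16 (adjusted p = 1.39e-09), and Ltbp3, which binds latent TGF-beta, by 0.71 ± 0.15 (adjusted p = 0.000707). Fbln5, a fibulin of elastic fibres, was lower by -1.24 ± 0.13 (adjusted p = 4.08e-08), and Thsd4, which promotes fibrillin assembly, by -1.09 ± 0.18 (adjusted p = 2.65e-05). Fbln2, another fibulin gene, had -0.40 ± 0.13 (adjusted p = 0.0208). In dcIDR 11 of the 27 were higher and 3 lower (11.4% and 16.4% over all genes), with a median of 0.17 against -0.02 for all genes. The dcIDR rises included Ltbp3 at 1.30 ± 0.15 (adjusted p = 4.69e-07), Fbn2 at 1.12 ± 0.16 (adjusted p = 6.5e-06) and Emilin2 at 0.64 ± 0.22 (adjusted p = 0.0328), and the falls Mfap4 at -0.64 ± 0.16 (adjusted p = 0.00447), Tgfb3 at -0.59 and Ltbp4 at -0.27. Fbn2 thus passed upward in dcIDR, where Fbn1 did not pass.

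In the slit diaphragm and podocyte list 6 of 24 tested genes were higher and 9 lower in KO (15.4% and 16.7% over all genes), with a median of -0.04. Beside Kirrel2, the scaffold gene Magi1 was higher by 0.77 ± 0.05 (adjusted p = 8.3e-12). Magi1 lies on chromosome 6, whose genes of mean level at least 50 had a median KO difference of 0.41. Trpc6, a cation channel, was lower by -0.98 ± 0.15 (adjusted p = 7.08e-06), Podxl, the podocalyxin gene, by -0.49 ± 0.06 (adjusted p = 3.99e-07), and the formin gene Inf2 by -0.44 ± 0.09 (adjusted p = 0.000564). In dcIDR, where 11.4% of all genes were higher and 16.4% lower, 1 was higher, Lmx1b at 0.65 ± 0.11 (adjusted p = 9.42e-05), and 9 were lower, with Magi2 at -0.79 ± 0.10 (adjusted p = 1.75e-06) and Trpc6 at -0.61 ± 0.15 (adjusted p = 0.0024). Tcf21, a podocyte transcription factor, had a mean level of 0.084 scaled reads, under the filter of 10.

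Among the calcium pumps and exchangers 2 of 19 tested genes were higher and 3 lower in KO, near the shares of 15.4% and 16.7% over all genes, with a median of -0.01. Slc24a1, a sodium, calcium and potassium exchanger, was higher by 1.06 ± 0.12 (adjusted p = 1.82e-07), and Atp2a2, the SERCA2 pump, by 0.23 ± 0.03 (adjusted p = 4.47e-06). Atp2b4, the PMCA4 pump, was lower by -0.80 ± 0.06 (adjusted p = 6.47e-11), and the exchangers Slc8a2 and Slc8b1 by -0.50 ± 0.15 and -0.28 ± 0.08 (adjusted p = 0.0137 and 0.011). Of the other pump genes of the PMCA family, Atp2b1 had -0.01 ± 0.05 (adjusted p = 0.943) and Atp2b3 -0.23 ± 0.19 (adjusted p = 0.39). In dcIDR 2 of the 19 were higher and 5 lower (11.4% and 16.4% over all genes). The rises were Atp2b3 at 0.73 ± 0.19 (adjusted p = 0.00533) and Slc8a2 at 0.48 ± 0.15 (adjusted p = 0.0208). The falls included Atp2a3 at -0.94 ± 0.13 (adjusted p = 3.15e-06) and Slc8b1 at -0.23.

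Of the GABA-A receptor list of 28 genes, 13 passed the filter, and Gabra6 had no read in any library. In KO 2 of the 12 other than Gabrp were higher and 1 lower, near the shares of 15.4% and 16.7% over all genes, with a median of -0.12. Gabrb1, a beta subunit gene, was higher by 0.45 ± 0.11 (adjusted p = 0.00196). In dcIDR 4 were higher and 3 lower (11.4% and 16.4% over all genes). The rises included Gad1, which makes GABA, at 0.92 ± 0.17 (adjusted p = 0.000247), and Gabre at 0.65 ± 0.23 (adjusted p = 0.035). Abat, which breaks GABA down, rose by 0.64 ± 0.12 (adjusted p = 0.000199), and the falls included Nsf at -0.12. Most alpha and gamma subunit genes, which form the common receptor with beta subunits, were under the filter.

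**Figure D5:**
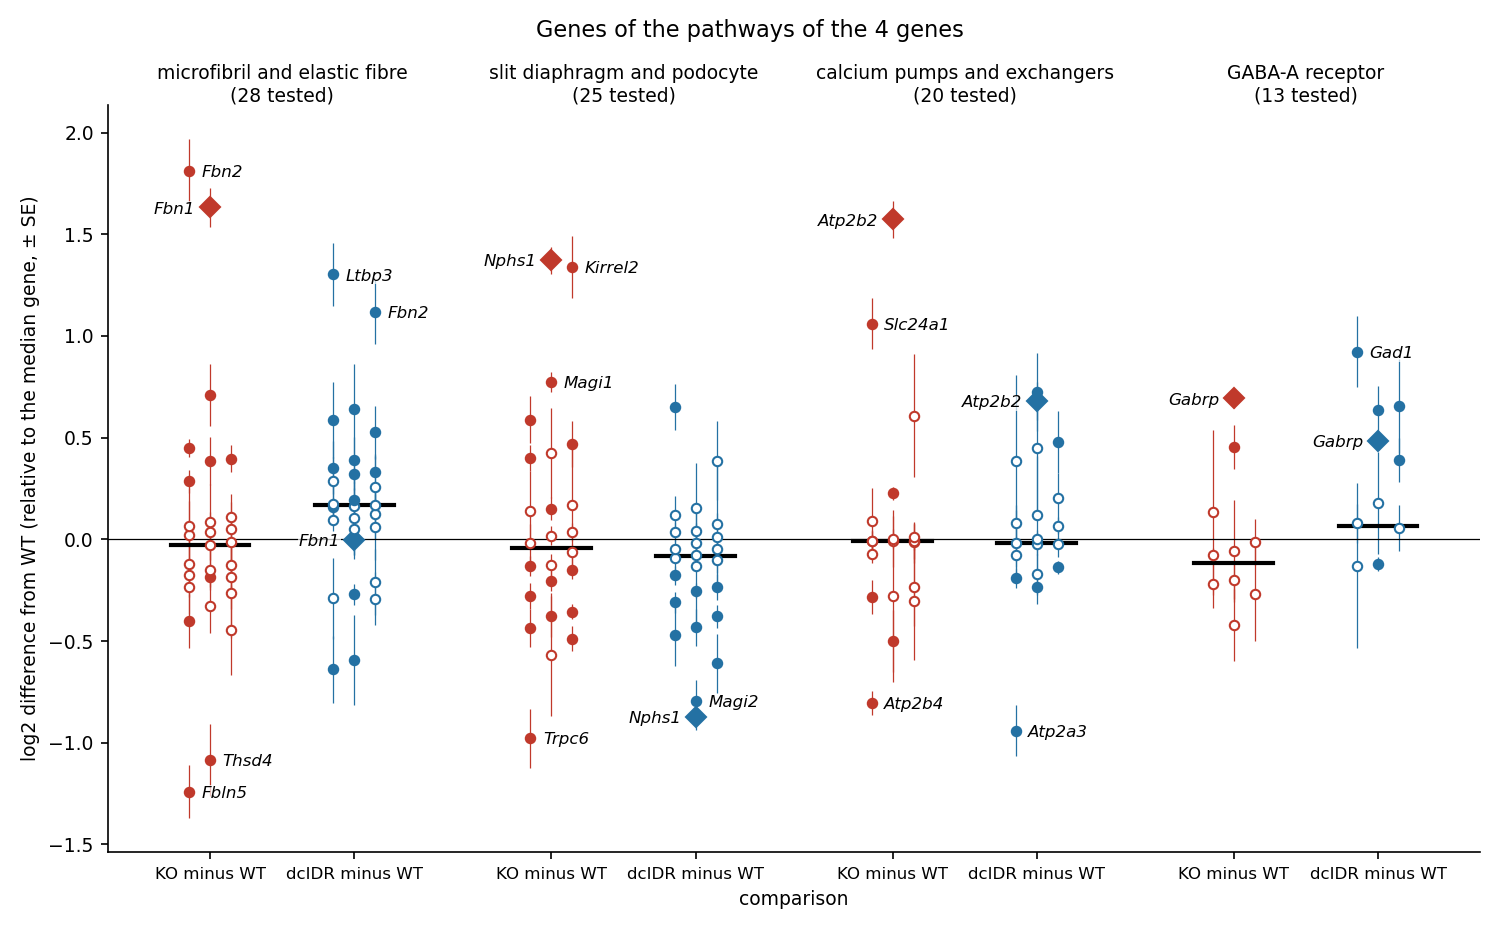
Log2 differences from WT (± SE) of the tested genes of 4 lists, KO in red and dcIDR in blue. Diamonds are the 4 members, filled circles passed the test at an adjusted p under 0.05, and black lines are medians over all tested genes of a list without the member, including a few genes that are not drawn. The medians lie between -0.12 and 0.17, and the members Fbn1, Nphs1 and Atp2b2 lie above 1.3 in KO.

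On the spike-in scale, with the median gene 0.30 higher in KO, 6187 of all 22448 tested genes were higher and 651 lower in KO. In dcIDR 1837 were higher and 590 lower. The KO counts were 6 higher and 2 lower of 27 for microfibrils and 7 and 1 of 24 for the slit diaphragm. They were 3 and 1 of 19 for calcium transport and 2 and 0 of 12 for GABA-A. The dcIDR counts on that scale were 7 and 0, 1 and 1, 2 and 1, and 3 and 1, with 1 gene of the slit diaphragm list lower in each mutant in place of 9.

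Markers of other cell types were set beside these results, where 15.4% of all genes were higher and 16.7% lower in KO. Of 12 mesenchyme and fibroblast markers, cells that make much fibrillin, 6 passed the filter, 0 were higher and 2 lower in KO, and summed reads were 0.00664 to 0.00829% of all reads in KO, 0.00579 to 0.0105% in dcIDR and 0.00845 to 0.0102% in WT. The mean levels of Lum, Dcn and Postn were 0.132, 0.191 and 0.349. Of 10 neural markers 8 passed, and 5 were higher and 1 lower in KO, with sums of 0.0292 to 0.04% in KO, 0.0127 to 0.0172% in dcIDR and 0.0173 to 0.021% in WT. Pax6 was higher by 1.57 ± 0.11, Elavl3 by 1.16 ± 0.12 and Nes by 0.86 ± 0.05, while Pou3f2 was lower by -1.49 ± 0.19 (adjusted p from 3.61e-12 to 5.64e-07), and Dcx, a marker of young neurons, had a mean level of 0.21. Epithelial markers summed to 0.0535 to 0.065% in KO, 0.0222 to 0.0296% in dcIDR and 0.0359 to 0.0431% in WT, with Cdh1 the largest part, and 1 was higher and 1 lower of 5 tested in KO. Extraembryonic endoderm markers summed to 0.0384 to 0.0437% in KO, 0.03 to 0.0422% in dcIDR and 0.0377 to 0.0449% in WT, with 0 higher and 2 lower of 7 in KO. In dcIDR, where 11.4% of all genes were higher and 16.4% lower, 1 mesenchyme marker was higher and 1 lower. The dcIDR counts were 0 higher and 3 lower for neural, 0 and 3 for epithelial, and 1 and 3 for endoderm markers. The epithelial markers other than Cdh1 had KO differences below 0, at -0.06 for Epcam, -0.21 for Trp63, -0.44 for Krt8 and -0.72 for Krt18. Only Krt18 of these passed the test (adjusted p = 0.0215, limma). The neural and epithelial sums, in which Nes and Cdh1 had the highest mean levels (2167 and 5578), were thus high in KO and low in dcIDR, as Nphs1 was. The part of these sums in the values of the 4 genes was not tested.

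The likeness of profiles was measured as Pearson's r over the 12 group means, among the 15215 genes whose mean level reached 50. The groups share their libraries and their centring on the median gene, so r is a description. Among the profiles nearest to Nphs1 were those of Gm48880 (r = 0.992) and Tango6 (r = 0.987). Nearest to Fbn1 were Galnt7 (r = 0.988), Sqstm1, which encodes the autophagy receptor p62 (r = 0.987), and Ttc1 (r = 0.985), with KO differences of 0.84, 0.80 and 0.56. Nearest to Atp2b2 were Evc2 (r = 0.958), Tex14 (r = 0.956) and the kinesin gene Kif3a (r = 0.946), and nearest to Gabrp were Palm (r = 0.933), Ltc4s (r = 0.932) and Ccdc92b (r = 0.927). Of these alike genes, Sqstm1, Ttc1, Tex14, Kif3a, Ltc4s and Ccdc92b lie on chromosome 11, as Gabrp does, and Galnt7 and Tango6 on chromosome 8. The part of chromosome position in the likeness was not tested. Among the 4 genes themselves r was 0.869 for Fbn1 and Nphs1, 0.874 for Fbn1 and Atp2b2, 0.657 for Nphs1 and Atp2b2, and 0.328, 0.362 and 0.634 for Gabrp with Fbn1, Nphs1 and Atp2b2.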

How the data were processed

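Values came from the authors' deposited gene table, whose 9 columns hold log2 ratios of each genotype at 20, 40 or 60 min to 10 min, scaled to spike-in reads with both replicates combined, per the file headers and values. The prefix ki was taken as dcIDR, the remaining genotype. Per the submitters' processing notes, the tools were HISAT2, SAMtools and Picard and the build GRCm39. How reads were counted, with which annotation and use of strand, is not stated in those notes.

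Whole reads per library were recovered from the ratios for 100% of lines with a value other than 0, with a relative error of at most 2.9e-15. The search accepted only whole reads that rebuild the ratios, so that error was small by design. On data simulated with the KO spike-in counts, sums and splits were right in 100% of 300 genes per depth. That figure does not cover real genes with an unclear split. Of tested genes 12.6% had a group whose split stayed unclear and entered as 1 value, none of them one of the 4 genes. Even counts were 61.3% of counts from 1 to 20, so mates may have been counted separately. Of each pair, A is the library with the higher spike-in count and B the other.

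Levels were scaled to 11714 spike-in reads. Tested were genes whose mean level reached 10 and that were above 0 in at least 6 libraries, as log2(level + 1), which understates changes of low genes, and centred on the median gene of each library, with limma 3.58.1 in R 4.3.3 (12 group means, variance trend with level, Benjamini-Hochberg, threshold 0.05). A genotype difference is the mean over 4 times. In a simulated KO against WT comparison 94% of 200 genes changed 2-fold were recovered. Symbols matched 21523 of the tested identifiers. Alternatives were other scales, no filter, a pseudocount of 5, no variance trend (added after seeing the data), no 10 min libraries and leaving out each library.

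The 4 genes and all lists were chosen with earlier results of these data known. Named are the 4 genes, the 3 nearest tested genes on each side, in each list the called genes with the 3 largest differences each way (Atp2b1, Tcf21, Gabra6 and the single marker genes were named after their values were seen), and the 3 most alike profiles. Some genes that these rules name are not reported here. The repeat table was not used here.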

Additional observations from a re-analysis of the deposited data

How the results depend on the processing

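No paired analysis was possible because the deposited columns combine both replicates and carry no replicate number. The dcIDR calls of Nphs1, Atp2b2 and Gabrp and the lack of a call for Fbn1 held under every alternative run, left-out libraries included. The median KO difference of the 4 genes was 1.47, and 1.44 to 1.50 with single libraries left out, against 1.78 on the spike-in scale. The median dcIDR minus KO was -1.31 to -1.22 with libraries left out.

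Counts over all genes moved with the scale and with other choices. On the spike-in scale KO minus WT called 6187 genes higher and 651 lower, against 3462 and 3755 relative to the median gene, and dcIDR minus WT called 2427 genes, 1837 higher and 590 lower, against 2559 and 3692. Slopes there passed in 20114 genes in KO, 21737 in dcIDR and 21299 in WT, and slope differences in 0 for KO minus WT and 54 for dcIDR minus WT, against 8 and 419. Slopes that turned positive there were 0.82 for Nphs1 and 0.56 for Gabrp in dcIDR, and 0.68, 0.71 and 0.39 for Nphs1, Atp2b2 and Gabrp in WT. Without the filter slopes passed in 15655, 24220 and 20492 genes in KO, dcIDR and WT, slope differences in 14 and 72, and the WT slope of Nphs1 was 0.051. A pseudocount of 5 gave 43 slope differences for KO minus WT. Without the variance trend these counts were 2 and 222. Without the 10 min libraries 6477 slopes passed in dcIDR and slope differences numbered 3 and 887, and the dcIDR slope of Nphs1 was 0.0035. Leaving out single libraries gave 4161 to 6924 slopes in KO, 2 to 543 slope differences for KO minus WT (543 without library A of WT at 10 min) and 149 to 932 for dcIDR minus WT. The cause of these shifts was not tested.

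The lowest read counts were 24 for Fbn1 in a dcIDR library and 29 for Atp2b2 in a WT library, both at 10 min.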
